A study of Mus musculus with 16 samples.

Results

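Proprioceptors of the mouse dorsal root ganglion at embryonic day 15.5 (e15.5) were compared with the other sensory neurons caught in the same single-cell libraries. They were chosen by a rule on 4 genes: a well counted as a proprioceptor when it held at least 1 UMI (unique molecular identifier, which marks 1 captured mRNA molecule) of each of Pvalb, Runx3, Etv1 and Ntrk3, with Etv1 at 800 CPM (UMIs of a gene scaled to a common total for the well) or more. Other sensory neurons had Pvalb under 150 CPM and Etv1 under 500 CPM. All had at least 10000 UMIs, under 10% mitochondrial UMIs, Avil plus Isl1 at 200 CPM or more as the mark of a sensory neuron, Col1a1 plus Col1a2 under 500 CPM, and Apoe plus Fabp7 under 200 CPM. The rule found 259 proprioceptors and 32 other sensory neurons among 960 wells at e15.5 and 1536 wells in the whole series, and 7 sensory neurons met neither definition.

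The study profiled single ganglion neurons with CEL-Seq2, a plate method that counts the 3′ ends of transcripts, at e15.5 (10 libraries of 96 wells) and at postnatal day 1 (p1; 6 libraries of 96 wells). Both classes compared here are e15.5 neurons of the strain labelled PvtdTom, in which tdTomato is driven by the parvalbumin promoter, and were sorted as single fluorescent cells. The other sensory neurons are therefore those that passed that sort, not a sample of all ganglion neurons. The labels give neither the spinal level of a library nor the embryos behind it, so libraries served as replicates. The p-values measure how the difference between classes within a library varied from library to library, which may be technical in part.

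Proprioceptors are the muscle afferents that report muscle length and tension to the spinal cord, through group Ia and II endings on muscle spindles and group Ib endings on Golgi tendon organs. Their precursors depend on the neurotrophin-3 receptor TrkC, encoded by Ntrk3, and on the transcription factor Runx3, and the ETS factor Er81, encoded by Etv1, acts in their central projection. Mechanoreceptors of the skin are known for Ntrk2, Ret and Maf, and nociceptors and thermoreceptors for Runx1, Prdm12 and Scn10a.

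The comparison used the 4 libraries that held at least 3 cells of both classes (libraries 1, 3, 9 and 10), with 138 proprioceptors and 27 other neurons. Library 1 held 22 proprioceptors and 9 others, library 3 held 6 and 7, library 9 held 47 and 7, and library 10 held 63 and 4. UMIs were summed over the cells of a class in each library, which gave 654966 to 7095479 UMIs a sum and a level of 0.423 to 4.58 CPM for 3 UMIs. A sum weights each cell by its UMIs, so where few cells were summed it can rest mostly on the deepest. Median UMIs per cell were 104440, 172786, 114146 and 109396 in proprioceptors of the 4 libraries and 48833, 93696, 117943 and 115411 in other neurons. Proprioceptors were thus deeper in libraries 1 and 3 and about level in libraries 9 and 10 (ratio 1.38, exact sign-flip permutation test over libraries, two-sided, p = 0.50, where the smallest possible p is 0.125). With each cell thinned to 10000 UMIs, the median number of genes was 4195 in proprioceptors and 4168 in other neurons (higher in 3 of 4 libraries, exact permutation p = 0.25), against 11112 and 10007 without thinning. The mitochondrial share was 5.44% and 5.22% (higher in 3 of 4 libraries, exact permutation p = 0.50).

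The 4 gate genes are given as a description, since they chose the cells. Etv1 stood at 2228, 2248, 1915 and 2018 CPM in proprioceptors and 33.4, 41.6, 128 and 19.8 CPM in other neurons of libraries 1, 3, 9 and 10, the order used for every list of 4 values here. Pvalb stood at 472, 547, 399 and 449 CPM against 16.7, 8.77, 50.8 and 25.96 CPM. Runx3 stood at 319.6, 317, 289 and 278 CPM against 6.07, 0, 4.73 and 121 CPM. Ntrk3 was even across proprioceptors, at 1858, 1772, 1850.3 and 1820.5 CPM, but not across other neurons, at 108, 376, 263 and 1809 CPM, so that library 10 held other neurons with as much Ntrk3 as proprioceptors. The lowest Etv1 level among proprioceptors was 876 CPM and the next 954 CPM. The 4 wells that had all 4 genes but too little Etv1 reached at most 72.7 CPM, and the highest among other neurons was 218 CPM. Of the 32 other neurons, 17 held a UMI of Pvalb and 11 a UMI of Runx3.

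**Figure D1:**
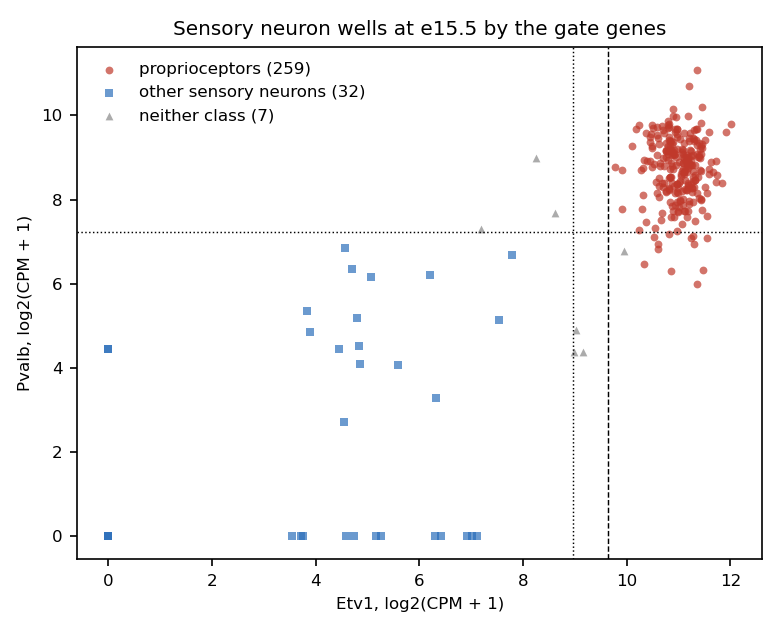
Each point is 1 of the 298 sensory neuron wells at e15.5, with Etv1 on the x axis and Pvalb on the y axis, both as log2(CPM + 1). The dashed line marks the Etv1 limit for proprioceptors and the dotted lines the limits for other sensory neurons, and no well lay between 218 and 876 CPM of Etv1 except wells of neither class.

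The labels were checked against markers. Tubb3, a pan-neuronal tubulin, stood at 2069.7, 1842, 2156 and 2271 CPM in proprioceptors and 1937, 1467, 2147 and 2035 CPM in other neurons, and overlapped between the classes. Receptors of skin mechanoreceptors were in some of the other neurons, where 5 of 32 had Ntrk2 at 100 CPM or more, 16 had Ntrk3, which is also a gate gene, 10 had Ret and 13 had none of these. The other neurons were therefore a mixture, and a difference from them is a difference from that mixture. Wells with signs of both sexes (at least 5 UMIs of Xist and at least 5 of Y-linked genes, a sign of 2 cells in a well) numbered 3 among proprioceptors and 1 among other neurons.

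Outside the gate genes, 9913 genes were tested with edgeR, and 698 were higher and 630 lower in proprioceptors at an adjusted p under 0.05. That is 7.04% of tested genes higher and 6.36% lower, and 390 and 341 of them differed at least 2-fold. The classes did not overlap over the 4 libraries for 920 genes higher (9.28%) and 846 genes lower (8.53%). The median log2 fold change over tested genes was -0.02. The counts fell most without library 3, which held the fewest proprioceptors. Then 412 genes were higher and 379 lower, of which 376 and 344 were among the 698 and 630. Without library 1 the counts were 483 and 444, without library 9 569 and 467, and without library 10 703 and 607. Cells were also pooled over the 4 libraries that held both classes but too few others for the test (107 proprioceptors and 5 other neurons). There 685 of the 698 higher genes (98.1%) and 605 of the 630 lower genes (96.0%) differed in the same direction. Of all tested genes 50.1% were higher and 49.9% lower in proprioceptors there. Most UMIs of those other neurons came from libraries 2 and 5 (251276 and 385690), against 29351 and 80099 in libraries 7 and 8.

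**Figure D2:**
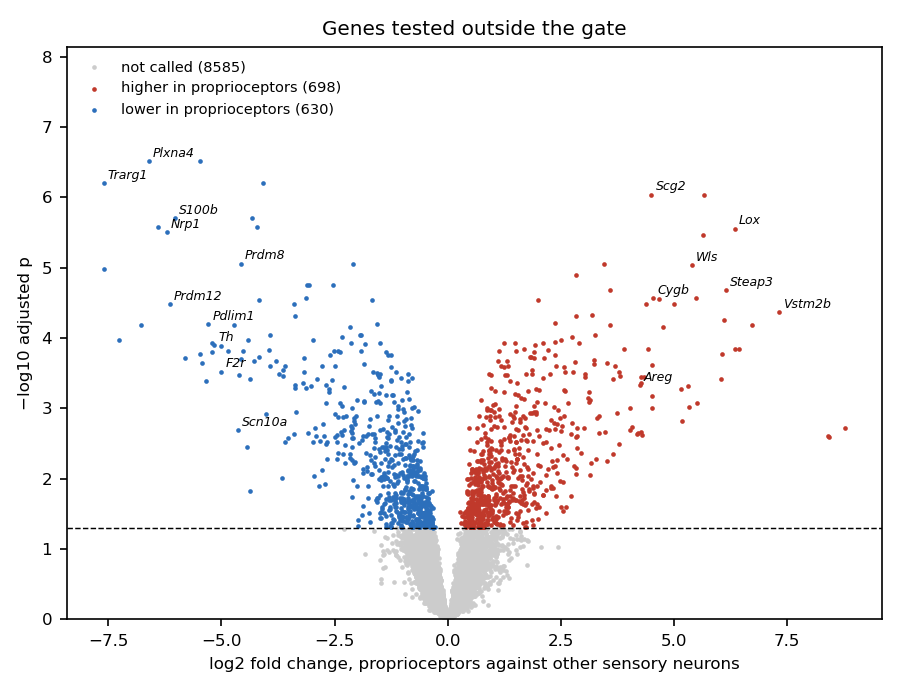
Each point is a gene tested outside the gate, with the log2 fold change of proprioceptors against other sensory neurons on the x axis and −log10 of the edgeR adjusted p on the y axis. The dashed line marks an adjusted p of 0.05, with 698 genes higher on the right and 630 lower on the left, and the leading genes with room for a label are named.

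The 15 leading higher genes, by fold among called protein-coding genes at 50 CPM or more that rose in every library, were near zero in other neurons. They were chosen for fold and direction, so low levels in other neurons and the gap between classes largely follow from the choice. Other neurons are given second throughout. Kcnip2, which encodes the KChIP2 subunit of A-type potassium channels, stood at 196, 237, 163 and 207 CPM in proprioceptors and 3.03, 3.29, 4.73 and 4.58 CPM in other neurons. The difference for Kcnip2 was 5.67 on the log2 scale (SE 0.21, adjusted p = 9.1e-07 in edgeR). Every proprioceptor library was thus far above every library of other neurons, and 138 of 138 proprioceptors but 8 of 27 other neurons held a UMI. Kcns1, an electrically silent potassium channel subunit, stood at 107, 95.8, 93.6 and 102 CPM against 3.03, 1.1, 2.36 and 1.53 CPM. The difference for Kcns1 was 5.63 on the log2 scale (SE 0.26, adjusted p = 3.48e-06 in edgeR). Scg2, the granule protein secretogranin II, stood at 273, 246, 144 and 164 CPM against 13.7, 9.86, 5.91 and 7.63 CPM. The difference for Scg2 was 4.50 on the log2 scale (SE 0.16, adjusted p = 9.1e-07 in edgeR). Both kept the classes apart in all 4 libraries. Esrrg, the orphan nuclear receptor ERRγ, stood at 102, 141, 99.96 and 106 CPM against 1.52, 7.67, 1.18 and 7.63 CPM. The difference for Esrrg was 4.66 on the log2 scale (SE 0.30, adjusted p = 2.8e-05 in edgeR).

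A Wnt ligand and the carrier of Wnt proteins were among the leading genes. Wls, which carries Wnt proteins to the cell surface, stood at 250.1, 205, 106 and 207 CPM in proprioceptors and 3.03, 9.86, 2.36 and 1.53 CPM in other neurons. The difference for Wls was 5.39 on the log2 scale (SE 0.29, adjusted p = 9.07e-06 in edgeR). Wnt7a, a secreted Wnt ligand, stood at 42.8, 46.5, 52.8 and 52.3 CPM against 0, 0, 0 and 6.11 CPM (log2 fold change 5.16, SE 0.59, adjusted p = 0.000528 in edgeR), and all 4 of its UMIs in other neurons came from library 10. Areg, the EGF receptor ligand amphiregulin, stood at 127, 116, 79.97 and 62.4 CPM against 3.03, 0, 8.27 and 9.16 CPM. The difference for Areg was 4.24 on the log2 scale (SE 0.47, adjusted p = 0.000471 in edgeR). Lox, the collagen cross-linking enzyme lysyl oxidase, stood at 157, 206, 86.97 and 74.7 CPM against 3.03, 2.19, 1.18 and 0 CPM. The difference for Lox was 6.34 on the log2 scale (SE 0.28, adjusted p = 2.78e-06 in edgeR). Lox and Wls were also high in the 91 wells of the same libraries set aside as connective tissue, at 529 and 167 CPM pooled. The 13 connective tissue genes of the marker list summed to 31.3 to 129 CPM in proprioceptors and 22.9 to 155 CPM in other neurons. The part of connective tissue RNA in the Lox and Wls results was not tested.

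The other leading genes had varied roles. Pcdh8, a protocadherin, stood at 98.96, 111, 89.2 and 71.3 CPM in proprioceptors and 3.03, 0, 0 and 3.05 CPM in other neurons. The difference for Pcdh8 was 6.10 on the log2 scale (SE 0.44, adjusted p = 5.54e-05 in edgeR). Pcdh11x, its X-linked relative, stood at 198, 243, 153 and 114 CPM against 7.59, 16.4, 9.45 and 0 CPM. The difference for Pcdh11x was 4.37 on the log2 scale (SE 0.29, adjusted p = 3.27e-05 in edgeR). Vstm2b had 900 UMIs in proprioceptors and 1 in other neurons, a ratio of 179.7 with a 95% counting interval of 32.2 to 7104. The remaining leading genes were Steap3 (a metalloreductase of iron uptake; 70.9-fold higher), Adgrg3 (an adhesion G-protein-coupled receptor; 44.6-fold), Gpr139 (an orphan G-protein-coupled receptor; 31.9-fold) and Cygb (the globin cytoglobin; 23.2-fold), with edgeR adjusted p-values between 2.06e-05 and 3.27e-05. The classes did not overlap for these 4 genes.

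Promoter sequence is shown for the leading higher genes that hold letters bound by the protein families of 2 gate genes. The RUNX family was searched as TGTGGT and the ETS family as CCGGAA, each on both strands, in the 250 bases before the first start of each gene listed by RefSeq (GRCm38.p6). Of the 15 leading higher genes 11 had an entry, and 1 held the RUNX letters and 1 the ETS letters. Of the 12 leading lower genes with an entry, 2 held each. Over all 27025 promoters in the table, 14.2% held the RUNX letters and 12.2% the ETS letters. Of tested genes only 7293 of 9901 symbols had an entry, and of these 9.89% held the RUNX letters and 23.6% the ETS letters. With 1 or 2 genes holding a motif, nothing was read from the shares of the leading genes, and for lack of entries none were compared over the called genes. The sequences run 5′ to 3′ on the strand of the gene, end at the base before the start, and have the matched letters in capitals, the ETS letters in Kcnip2 and 2 copies of the RUNX letters, which overlap by 1 base, in Steap3.
Kcnip2, chr19:45816064-45816313, minus strand: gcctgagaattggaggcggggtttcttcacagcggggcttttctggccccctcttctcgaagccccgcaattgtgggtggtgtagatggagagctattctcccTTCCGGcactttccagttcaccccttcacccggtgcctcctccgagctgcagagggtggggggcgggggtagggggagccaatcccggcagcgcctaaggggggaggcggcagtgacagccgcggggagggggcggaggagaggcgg
Steap3, chr1:120271081-120271330, minus strand: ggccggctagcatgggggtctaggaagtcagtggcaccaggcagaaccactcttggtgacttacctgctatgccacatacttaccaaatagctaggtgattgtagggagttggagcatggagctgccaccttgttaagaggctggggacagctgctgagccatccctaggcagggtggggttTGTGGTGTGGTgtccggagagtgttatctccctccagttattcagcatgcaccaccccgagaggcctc

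The leading lower genes, chosen in the same way, were near zero in proprioceptors, which largely follows from the choice. In other neurons some were high in every cell and others in part of the cells. Plxna4 and Nrp1, which together form a receptor for the repulsive cue semaphorin 3A, led in level. Plxna4 stood at 4.9, 2.85, 6.8 and 5.5 CPM in proprioceptors and 636, 550.03, 499 and 513 CPM in other neurons. The difference for Plxna4 was -6.60 on the log2 scale (SE 0.18, adjusted p = 3.08e-07 in edgeR). Nrp1 stood at 3.12, 1.9, 10.4 and 4.51 CPM against 354, 419.6, 402 and 457 CPM. The difference for Nrp1 was -6.21 on the log2 scale (SE 0.28, adjusted p = 3.12e-06 in edgeR). All 27 other neurons but 25 of 138 proprioceptors held a UMI of Plxna4, and all 27 but 32 of 138 a UMI of Nrp1. Both genes were at least 51.6 CPM in each of the 32 other neurons of all libraries.

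The homeobox gene Prrxl1 (also Drg11), needed for nociceptor projections, stood at 0.446, 1.9, 1.4 and 1.69 CPM in proprioceptors and 178, 163, 125 and 91.6 CPM in other neurons. The difference for Prrxl1 was -6.40 on the log2 scale (SE 0.28, adjusted p = 2.67e-06 in edgeR). Prdm12, a nociceptor fate gene, stood at 0.892, 0, 4.0 and 1.83 CPM against 361, 213, 168 and 70.2 CPM. The difference for Prdm12 was -6.14 on the log2 scale (SE 0.41, adjusted p = 3.27e-05 in edgeR). The level of Prdm12 in other neurons was highest in library 1, but every library of other neurons was above every proprioceptor library. The sodium channel gene Scn10a, which encodes Nav1.8, stood at 0.446, 0.949, 7.0 and 4.51 CPM against 370.2, 187, 57.9 and 42.8 CPM. The difference for Scn10a was -4.63 on the log2 scale (SE 0.67, adjusted p = 0.00206 in edgeR). Gfra1, a co-receptor of GDNF, stood at 1.78, 1.9, 2.0 and 0 CPM against 13.7, 63.5, 174 and 16.8 CPM. The difference for Gfra1 was -5.80 on the log2 scale (SE 0.54, adjusted p = 0.000191 in edgeR). A UMI of Gfra1 was in 15 of the 32 other neurons of all libraries, and 7 of them reached 100 CPM. Th, the enzyme of catecholamine synthesis, stood at 2.67, 1.9, 2.4 and 1.41 CPM against 132, 131, 17.7 and 97.7 CPM (log2 fold change -5.16, SE 0.44, adjusted p = 0.000126 in edgeR), with library 9 well below the other 3.

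S100b, a calcium-binding protein known in adult large-diameter neurons and glia, stood at 3.12, 2.85, 5.0 and 5.78 CPM in proprioceptors at e15.5 and 74.3, 122, 395 and 463 CPM in other neurons. The difference for S100b was -6.03 on the log2 scale (SE 0.25, adjusted p = 1.96e-06 in edgeR). The 13 genes of the glial marker list summed to 36.4 to 82.0 CPM in proprioceptors and 35.1 to 273 CPM in other neurons, and the part of glial RNA in the S100b levels was not tested. In the 113 wells at p1 that met the same rule for proprioceptors, it stood at 425 CPM pooled. The ages differ in line, collection and library, so they are given side by side with no test. The remaining leading lower genes were Trarg1, Brinp1, Pdlim1, Nwd2, F2r (a thrombin receptor) and Prdm8, at 64.1 CPM or more in every library of other neurons for Trarg1 and 194 CPM or more for Brinp1, against at most 0.949 and 5.2 CPM in proprioceptors.

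**Figure D3:**
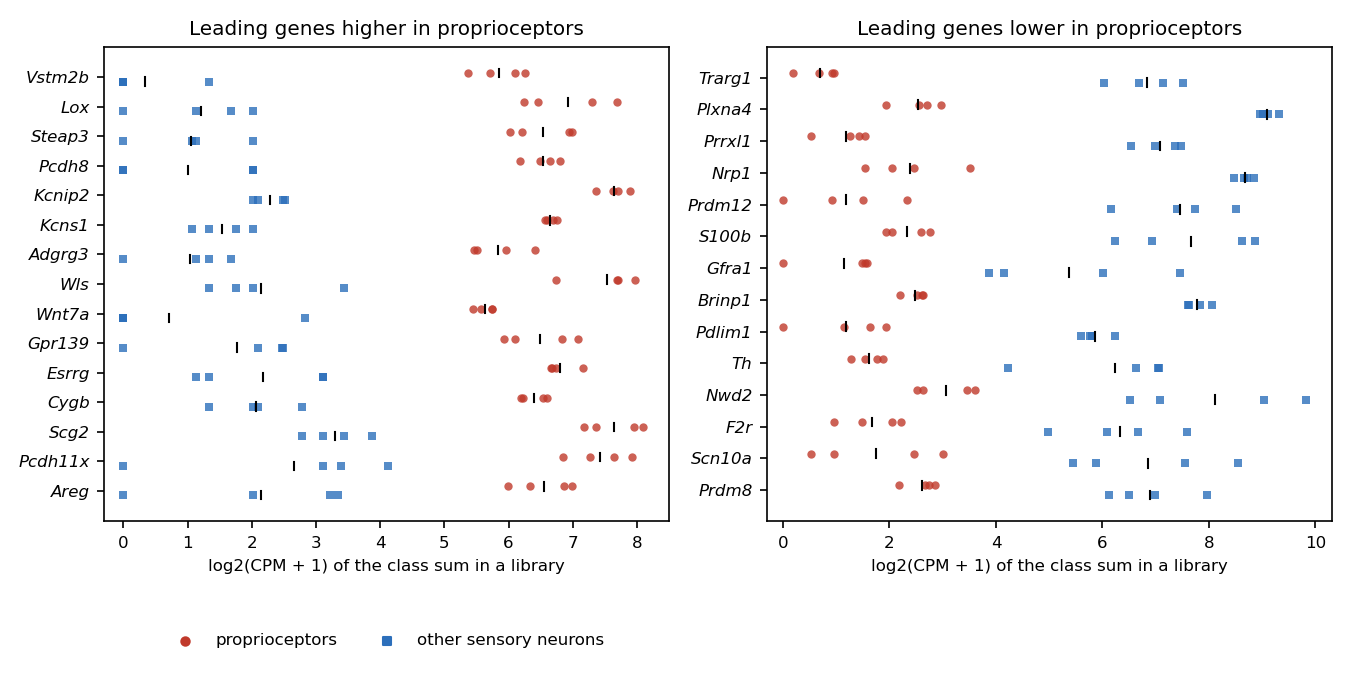
Each row is a leading gene, higher in proprioceptors on the left and lower on the right, and each point is the class sum of 1 library as log2(CPM + 1), in red circles for proprioceptors and blue squares for other sensory neurons, with the mean as a black bar. The 4 proprioceptor libraries and the 4 libraries of other neurons did not overlap for any of the genes drawn, which were chosen for their size and direction.

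Counts of called genes in the lists that follow stand against 7.04% higher and 6.36% lower over all tested genes. The lists were chosen with earlier results of these data known, so their shares are not independent evidence. A gene could also pass the count filter through the class where it was high, as Itga2 did. Genes linked with proprioceptors in earlier work were tested as a list of 20, of which 12 had enough counts. Of these 7 were higher (58.3%) and none lower, with a median log2 fold change of 0.99, and 4 of the 7 (Itga2, Esrrg, Vsnl1 and Cdh13) were called without each library in turn. Itga2, the integrin α2 subunit, had 610 UMIs in proprioceptors and 1 in other neurons, a ratio of 122 with a 95% counting interval of 21.8 to 4817. Vsnl1, a neuronal calcium sensor, stood at 36.1, 42.7, 90.2 and 60.9 CPM in proprioceptors and 6.07, 8.77, 10.6 and 1.53 CPM in other neurons. The difference for Vsnl1 was 3.03 on the log2 scale (SE 0.32, adjusted p = 0.000365 in edgeR). Cdh13, the GPI-anchored T-cadherin, stood at 267, 223, 195 and 129 CPM against 31.9, 113, 8.27 and 47.3 CPM. The difference for Cdh13 was 2.18 on the log2 scale (SE 0.42, adjusted p = 0.00895 in edgeR). Spp1, osteopontin, was too low to test, with 12.9, 7.59, 10.996 and 11.4 CPM in proprioceptors and no UMI in other neurons, which makes it at least 11.5-fold higher against a floor of 3 UMIs over the other neurons. Whrn, the scaffold protein whirlin of adult proprioceptors, stood at 10.7, 14.2, 15.8 and 13.8 CPM against 18.2, 5.48, 0 and 4.58 CPM and was not called (adjusted p = 0.303 in edgeR).

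The 13 genes listed as candidates of muscle types within proprioceptors are given as values. The list was chosen on these samples, in part by the study, and is not independent evidence of a direction. The main text of the study names Efna5 as such a marker but does not name Cdh7, Casz1 or Igf1. Of 9 tested, Cdh7 was higher and Efna5, Casz1 and Igf1 were lower, with a median log2 fold change of -1.19. Cdh7, a classical cadherin, stood at 33.4, 27.5, 50.2 and 95.6 CPM in proprioceptors and 3.03, 4.38, 8.27 and 4.58 CPM in other neurons. The difference for Cdh7 was 3.22 on the log2 scale (SE 0.31, adjusted p = 0.000236 in edgeR). Efna5, the membrane-tethered repellent ephrin-A5, stood at 14.7, 9.49, 28.2 and 23.5 CPM against 261, 228, 454 and 351 CPM. The difference for Efna5 was -4.07 on the log2 scale (SE 0.14, adjusted p = 6.27e-07 in edgeR). Casz1, a zinc finger factor, stood at 56.2, 15.2, 147 and 127 CPM against 639, 435, 482 and 409 CPM. The difference for Casz1 was -2.67 on the log2 scale (SE 0.42, adjusted p = 0.00305 in edgeR). Igf1, a growth factor, stood at 40.1, 18.02, 164 and 217 CPM against 199, 117, 338 and 458 CPM. The difference for Igf1 was -1.61 on the log2 scale (SE 0.25, adjusted p = 0.00301 in edgeR). Library 3 had the lowest proprioceptor level of Efna5, Casz1 and Igf1. Igf1 overlapped between classes across libraries but was lower in proprioceptors within each of the 4. By cell the order was the other way: the median was 44.99 CPM in the 259 proprioceptors, 196 of them with a UMI, and 10.9 CPM in the 32 other neurons, 17 with a UMI. The call of Igf1 was lost without the library block (adjusted p = 0.241 in edgeR) and against only those 7 other neurons with no UMI of Pvalb and Runx3 (0.414).

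Of 20 nociceptor, thermoreceptor and itch genes 11 were tested, and 7 were lower (63.6%) and none higher, with a median log2 fold change of -4.43. All 7 were called without each library in turn. Besides Prrxl1, Prdm12, Th and Scn10a they included Runx1 (log2 fold change -4.43, SE 0.71, adjusted p = 0.00351 in edgeR), the factor opposite Runx3 in sensory diversification, and Gal (log2 fold change -2.46, SE 0.37, adjusted p = 0.00242 in edgeR), the neuropeptide galanin. Runx1 stood at 2.67, 2.85, 4.2 and 2.68 CPM in proprioceptors and 414, 137, 11.8 and 22.9 CPM in other neurons, highest in library 1. The peptide gene Calca, with 4 UMIs in proprioceptors and 26 in other neurons, was too low to test. Of 12 skin mechanoreceptor genes 8 were tested (median log2 fold change -0.62), 3 were higher and 3 lower. Maf stood at 17.8, 8.54, 9.6 and 13.8 CPM against 129, 173, 447 and 316 CPM. The difference for Maf was -4.41 on the log2 scale (SE 0.36, adjusted p = 0.000106 in edgeR), and its call was lost against the other neurons with no UMI of Pvalb and Runx3 (-1.18, adjusted p = 0.248 in edgeR). Pou4f2 stood at 19.6, 6.64, 17.6 and 16.1 CPM against 141, 138, 56.7 and 156 CPM. The difference for Pou4f2 was -2.88 on the log2 scale (SE 0.31, adjusted p = 0.000389 in edgeR). Ret stood at 7.58, 6.64, 21.4 and 11.4 CPM against 106, 360.5, 1667 and 1.53 CPM (log2 fold change -4.36, SE 0.94, adjusted p = 0.0149 in edgeR), and library 10 alone had almost none in other neurons. Its call was lost without library 3 (adjusted p = 0.097 in edgeR) and without library 9 (0.0697). The 3 higher genes, Cux2, Necab2 and Cntnap2, were each lost without at least 1 library. Ntrk2, not tested because too few of the sums held enough counts, stood at 3.57, 3.79, 0.800 and 0.987 CPM against 382, 713, 285 and 3.05 CPM.

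Genes shared by sensory neurons in general were not at one level. Of 14 tested (median log2 fold change -0.34) 5 were lower (35.7%) and none higher, and 4 of these were called without each library in turn. Isl2, a LIM homeobox factor, stood at 25.4, 26.6, 34.99 and 27.8 CPM in proprioceptors and 189.6, 218, 142 and 94.7 CPM in other neurons. The difference for Isl2 was -2.37 on the log2 scale (SE 0.21, adjusted p = 0.000161 in edgeR). Klf7, a Krüppel-like factor, stood at 420.4, 422, 504 and 426 CPM against 871, 839, 844 and 728 CPM. The difference for Klf7 was -0.88 on the log2 scale (SE 0.09, adjusted p = 0.000323 in edgeR). Rbfox3, the splicing factor NeuN, stood at 150.2, 124, 224 and 184 CPM against 487, 426, 532 and 243 CPM. The difference for Rbfox3 was -1.27 on the log2 scale (SE 0.20, adjusted p = 0.00346 in edgeR). These 3 did not overlap between classes. Pou4f1, which encodes Brn3a, stood at 239, 209, 205 and 193 CPM against 479, 396, 432 and 215 CPM (log2 fold change -0.80, SE 0.15, adjusted p = 0.00923 in edgeR), and its call was lost without library 3 (adjusted p = 0.0581 in edgeR).

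Among 32 transcription factors tested (median log2 fold change -0.36), 13 were lower (40.6%, against 6.36% of all tested genes) and 6 higher (18.8%, against 7.04%). Of these 11 and 3 were called without each library in turn. Many of them, among them Prrxl1, Prdm12, Runx1, Maf, Isl2 and Esrrg, were also counted in the lists above, so these shares are not separate from those. Tshz2, a teashirt zinc finger factor, was the highest of those that rose, at 754, 655, 557 and 588 CPM in proprioceptors and 184, 128, 178 and 156 CPM in other neurons. The difference for Tshz2 was 1.99 on the log2 scale (SE 0.13, adjusted p = 2.93e-05 in edgeR). Onecut3, a cut homeobox factor, had 318 UMIs against 3, a ratio of 21.2 with a 95% counting interval of 7.18 to 103. The 2 close relatives of Etv1 were lower: Etv5 stood at 2.67, 0.949, 5.0 and 6.2 CPM against 56.1, 79.98, 76.8 and 93.1 CPM. The difference for Etv5 was -4.17 on the log2 scale (SE 0.27, adjusted p = 2.88e-05 in edgeR). Etv4 stood at 0, 3.79, 6.0 and 4.79 CPM against 39.4, 16.4, 33.1 and 77.9 CPM. The difference for Etv4 was -3.53 on the log2 scale (SE 0.54, adjusted p = 0.00264 in edgeR). Both were at or near zero in every proprioceptor library. Ebf3, a helix-loop-helix factor, stood at 24.1, 16.1, 17.99 and 24.2 CPM against 141, 112, 116 and 116 CPM. The difference for Ebf3 was -2.54 on the log2 scale (SE 0.15, adjusted p = 1.74e-05 in edgeR).

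Of 8 neurotrophin and GDNF receptor genes tested (median log2 fold change -1.56), 4 were lower and 1 higher. Ngfr, the p75 receptor that binds all neurotrophins, stood at 443, 403, 592 and 675 CPM in proprioceptors and 534, 1134, 2415 and 1696 CPM in other neurons. The difference for Ngfr was -1.29 on the log2 scale (SE 0.23, adjusted p = 0.0059 in edgeR), and against other neurons with no UMI of Pvalb and Runx3 it was -0.26 (adjusted p = 0.474 in edgeR). It was lower in proprioceptors within each library, but library 1 of the other neurons lay inside the range of the proprioceptors. Like Gfra1 it was called without each library in turn, while Ret and the 1 higher gene, Gfra4, were not.

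Of 5 neuronal intermediate filament genes, all tested (median log2 fold change 0.50), 3 were higher and 1 lower. Nefl, the light neurofilament chain, stood at 6428, 5541, 8007 and 7764 CPM in proprioceptors and 3097, 2902, 6558 and 5738 CPM in other neurons. The difference for Nefl was 0.68 on the log2 scale (SE 0.13, adjusted p = 0.00733 in edgeR). Nefm, the medium chain, stood at 5125, 4232, 6661 and 5778 CPM against 1344, 2013, 4816 and 5078 CPM (log2 fold change 0.91, SE 0.24, adjusted p = 0.0334 in edgeR), a call that was lost without library 1 (adjusted p = 0.0576 in edgeR) and without library 3 (0.145). The annotated spans of Nefl and Nefm overlap on chromosome 14, so their counts may share reads. Ina, α-internexin, stood at 1697, 1308, 1513 and 1543 CPM against 1191, 837, 1092 and 1208 CPM. The difference for Ina was 0.50 on the log2 scale (SE 0.08, adjusted p = 0.00395 in edgeR), a call lost against other neurons with no UMI of Pvalb and Runx3 (adjusted p = 0.0806 in edgeR). Prph, peripherin, was lower, at 1670.3, 1569, 1847 and 1867 CPM against 2702, 2385, 2699 and 2377 CPM. The difference for Prph was -0.54 on the log2 scale (SE 0.08, adjusted p = 0.00222 in edgeR). Nefh, the heavy chain, did not pass the test, at 173, 249, 276 and 226 CPM against 54.6, 129, 389 and 634 CPM (log2 fold change 0.01, SE 0.42, adjusted p = 0.997 in edgeR), and stood at 2131 CPM in the pooled p1 proprioceptors. Against only those other neurons of libraries 1 and 3 with no UMI of Pvalb and Runx3, Nefh was called higher in proprioceptors. Of 16 axon growth and cytoskeleton genes tested (median log2 fold change 0.01), 1 was higher (6.25%, against 7.04% of all tested genes) and 2 lower (12.5%, against 6.36%), and all 3 were called without each library in turn. Map2, the dendritic and somatic microtubule protein, stood at 422, 393, 391 and 401 CPM against 264, 251, 255 and 266 CPM. The difference for Map2 was 0.64 on the log2 scale (SE 0.09, adjusted p = 0.0019 in edgeR). Gap43, the growth cone protein, stood at 1389, 1283, 1603 and 1628 CPM against 2632, 2246, 3586 and 2391 CPM (log2 fold change -0.86, SE 0.10, adjusted p = 0.000734 in edgeR), and Dpysl3, of the collapsin response mediator family, fell by 0.55 on the log2 scale (adjusted p = 0.00303 in edgeR).

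Ion channel genes moved in both directions. Of 9 voltage-gated sodium channel genes tested (median log2 fold change 0.26) 3 were higher and 2 lower. Scn2a (Nav1.2) stood at 276, 268, 266 and 234 CPM in proprioceptors and 45.5, 77.8, 106 and 169 CPM in other neurons. The difference for Scn2a was 1.47 on the log2 scale (SE 0.27, adjusted p = 0.00751 in edgeR), a call lost when cells were thinned to 10000 UMIs (adjusted p = 0.0562 in edgeR). Scn3a (Nav1.3) stood at 283, 242, 224 and 210.4 CPM against 132, 148, 159.5 and 131 CPM. The difference for Scn3a was 0.74 on the log2 scale (SE 0.13, adjusted p = 0.00455 in edgeR). Of 23 voltage-gated potassium channel genes (median log2 fold change -0.09) 4 were higher (17.4%) and 6 lower (26.1%), and all 4 and 4 of the 6 were called without each library in turn. Kcna6 (Kv1.6) stood at 335, 313, 384 and 397 CPM against 152, 159.97, 207 and 219.9 CPM. The difference for Kcna6 was 0.96 on the log2 scale (SE 0.10, adjusted p = 0.000341 in edgeR). Kcnh2, the ERG channel, stood at 88.3, 75.9, 86.8 and 83.4 CPM against 27.3, 26.3, 57.9 and 48.9 CPM. The difference for Kcnh2 was 1.08 on the log2 scale (SE 0.21, adjusted p = 0.0091 in edgeR). Kcna2 (Kv1.2) was lower, at 24.1, 16.1, 63.97 and 65.1 CPM against 234, 257, 199 and 337 CPM (log2 fold change -2.63, SE 0.30, adjusted p = 0.000538 in edgeR), as was Kcnc4 (Kv3.4), at 16.9, 13.3, 4.6 and 5.64 CPM against 42.5, 86.6, 51.99 and 19.8 CPM. The difference for Kcnc4 was -2.34 on the log2 scale (SE 0.35, adjusted p = 0.00238 in edgeR). Kcnd1 (Kv4.1), a pore-forming subunit that binds KChIP proteins, stood at 20.1, 18.02, 30.99 and 37.9 CPM against 43.998, 72.3, 109 and 88.6 CPM (log2 fold change -1.53, SE 0.19, adjusted p = 0.000797 in edgeR), opposite in direction to Kcnip2. In each library Kv1.6 was thus higher and Kv1.2 lower in proprioceptors.

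Of 14 voltage-gated calcium channel genes tested (median log2 fold change -0.18) 2 were higher and 3 lower. Cacng5, of the family of AMPA receptor auxiliary subunits, stood at 83.4, 97.7, 61.6 and 44.96 CPM in proprioceptors and 15.2, 2.19, 11.8 and 15.3 CPM in other neurons. The difference for Cacng5 was 2.71 on the log2 scale (SE 0.40, adjusted p = 0.00233 in edgeR). Cacna1h, the T-type channel Cav3.2, stood at 63.3, 57.9, 75.2 and 85.1 CPM against 194, 151, 111 and 154 CPM. The difference for Cacna1h was -1.08 on the log2 scale (SE 0.18, adjusted p = 0.0038 in edgeR). Of 7 HCN and two-pore potassium channel genes (median log2 fold change 0.67) 2 were higher, with Hcn2, a pacemaker channel, at 28.98, 17.1, 29.2 and 25.2 CPM against 4.55, 7.67, 9.45 and 12.2 CPM. The difference for Hcn2 was 1.55 on the log2 scale (SE 0.30, adjusted p = 0.00968 in edgeR). Of 7 mechanotransduction genes (median log2 fold change -0.06) 1 was higher, Asic1, and it lost its call without library 1, 3 or 9. Piezo2, the mechanically gated channel of proprioceptors and touch neurons, stood at 982, 1092, 861 and 784 CPM against 666, 1238, 1173 and 889 CPM and did not pass the test (log2 fold change -0.06, SE 0.14, adjusted p = 0.835 in edgeR). Against only those other neurons with no UMI of Pvalb and Runx3, the log2 fold change of Piezo2 was 0.87 (adjusted p = 1.842e-05 in edgeR). These were 3 cells of library 1 and 4 of library 3. That p-value thus rests on a single pair of sums from each of these libraries, and no general difference was read from it.

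Synaptic genes also showed pairs of opposite direction. Of 25 vesicular release genes tested (median log2 fold change 0.13) 5 were higher (20%) and 7 lower (28%), and 2 and 5 of these were called without each library in turn. Cplx1 and Cplx2 encode complexins, which act on the same step of vesicle fusion. Cplx1 stood at 908, 921, 893 and 952 CPM in proprioceptors and 302, 359, 473 and 588 CPM in other neurons. The difference for Cplx1 was 1.14 on the log2 scale (SE 0.14, adjusted p = 0.00102 in edgeR). Cplx2 stood at 30.8, 26.6, 45.4 and 50.03 CPM against 291, 259.7, 154 and 261 CPM. The difference for Cplx2 was -2.59 on the log2 scale (SE 0.24, adjusted p = 0.000172 in edgeR). Neither overlapped between classes. Syt1, the fast calcium sensor of release, was higher (log2 fold change 0.69, SE 0.09, adjusted p = 0.00128 in edgeR), a call lost against other neurons with no UMI of Pvalb and Runx3 (adjusted p = 0.372), while Syt2 (log2 fold change -1.23, SE 0.17, adjusted p = 0.00184 in edgeR), Syt7 (log2 fold change -1.63, SE 0.27, adjusted p = 0.0037 in edgeR) and the vesicle protein gene Sv2c (log2 fold change -1.56, SE 0.12, adjusted p = 6.43e-05 in edgeR) were lower. In the pooled p1 proprioceptors Cplx1 stood at 1328 CPM, Cplx2 at 28.5 CPM and Syt2 at 371 CPM. Of 13 GABA-A and glutamate receptor subunits tested (median log2 fold change 0.29) 2 were higher and 4 lower. Gria2 stood at 305, 306, 368 and 342 CPM against 147, 126, 124 and 169 CPM. The difference for Gria2 was 1.23 on the log2 scale (SE 0.12, adjusted p = 0.000259 in edgeR). Gria4 stood at 129, 80.6, 98.8 and 76.2 CPM against 18.2, 43.8, 42.5 and 35.1 CPM (log2 fold change 1.43, SE 0.26, adjusted p = 0.00691 in edgeR), both AMPA receptor subunits. Gabra2 stood at 24.5, 29.4, 66.97 and 28.2 CPM against 62.2, 123, 232 and 148 CPM (log2 fold change -1.92, SE 0.17, adjusted p = 0.000156 in edgeR), and Grin3a, an NMDA receptor subunit, fell by 2.12 on the log2 scale (adjusted p = 0.00222 in edgeR).

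Guidance genes are listed here beside the shares of all tested genes given above, 7.04% higher and 6.36% lower. Of 23 semaphorin, plexin and neuropilin genes tested (median log2 fold change 0.04) 6 were higher and 4 lower, and 4 and 4 were called without each library in turn. Of the 7 other plexins tested, 2 were higher and the rest were not called. Plxnd1, a receptor for semaphorin 3E, stood at 165, 188, 94.96 and 98.4 CPM in proprioceptors and 19.7, 16.4, 8.27 and 6.11 CPM in other neurons. The difference for Plxnd1 was 3.46 on the log2 scale (SE 0.18, adjusted p = 8.72e-06 in edgeR). Plxna1 stood at 92.3, 86.3, 109 and 112 CPM against 22.8, 19.7, 28.4 and 61.1 CPM (log2 fold change 1.67, SE 0.22, adjusted p = 0.00129 in edgeR). Both plexins and Plxna4 kept the classes apart in every library. Of the transmembrane semaphorins called without each library in turn, Sema6a (log2 fold change 1.87, SE 0.19, adjusted p = 0.000289 in edgeR) and Sema6b (log2 fold change 2.29, SE 0.37, adjusted p = 0.00366 in edgeR) were higher. Sema4d (log2 fold change -1.72, SE 0.23, adjusted p = 0.00142 in edgeR) and Sema6d (log2 fold change -1.57, SE 0.16, adjusted p = 0.000315 in edgeR) were lower.

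Of 13 ephrin and Eph receptor genes tested (median log2 fold change 0.33) 4 were higher and 2 lower, and all 6 were called without each library in turn. Epha7 stood at 222, 303, 79.8 and 126 CPM in proprioceptors and 31.9, 33.97, 14.2 and 19.8 CPM in other neurons (log2 fold change 2.84, SE 0.16, adjusted p = 1.28e-05 in edgeR), Epha4 at 36.1, 18.02, 25.4 and 29.2 CPM against 1.52, 2.19, 1.18 and 10.7 CPM (log2 fold change 2.86, SE 0.46, adjusted p = 0.00362 in edgeR), and Epha10 and Efnb2 were 3.02-fold and 1.59-fold higher, the call of Efnb2 being lost when cells were thinned to 10000 UMIs (adjusted p = 0.0682 in edgeR). The ligand Efna5 and the receptor Ephb3 (log2 fold change -1.89, SE 0.29, adjusted p = 0.00283 in edgeR) were lower. The receptors Epha3 and Epha5 and the ligands Efna2 and Efna3 were tested and not called. Of 7 Slit, Robo and netrin genes (median log2 fold change 0.73) 2 were higher and 2 lower. The repellent Slit2 stood at 156, 169, 131 and 161 CPM against 9.1, 9.86, 23.6 and 94.7 CPM (log2 fold change 2.41, SE 0.46, adjusted p = 0.00832 in edgeR), with other neurons of library 10 well above the other 3, and Slit1 at 43.2, 26.6, 27.6 and 30.2 CPM against 12.1, 8.77, 11.8 and 18.3 CPM. The difference for Slit1 was 1.31 on the log2 scale (SE 0.26, adjusted p = 0.00956 in edgeR), a call lost against other neurons with no UMI of Pvalb and Runx3 (adjusted p = 0.255 in edgeR). The 2 lower genes, Robo2 and Neo1, were each lost without at least 1 library.

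Of 32 cadherin, contactin and IgLON genes tested (median log2 fold change 0.12) 11 were higher and 6 lower, and 5 and 4 of these were called without each library in turn. Besides Pcdh8, Pcdh11x, Cdh7 and Cdh13, the protocadherin Pcdh19 was higher, at 304, 232, 424 and 317 CPM in proprioceptors and 43.998, 48.2, 70.9 and 192 CPM in other neurons. The difference for Pcdh19 was 2.01 on the log2 scale (SE 0.30, adjusted p = 0.00247 in edgeR). Cdh11, a type II cadherin also found in mesenchyme, was lower, at 14.7, 6.64, 18.2 and 10.3 CPM against 297, 257, 74.4 and 144 CPM. The difference for Cdh11 was -3.64 on the log2 scale (SE 0.38, adjusted p = 0.000347 in edgeR). Nrcam stood at 41.5, 32.3, 47.2 and 38.2 CPM against 53.1, 103, 144 and 119 CPM. The difference for Nrcam was -1.36 on the log2 scale (SE 0.21, adjusted p = 0.00312 in edgeR), a call lost against other neurons with no UMI of Pvalb and Runx3 (adjusted p = 0.168 in edgeR). Cdh12 stood at 256, 268, 383 and 363 CPM against 9.1, 7.67, 49.6 and 301 CPM. The difference for Cdh12 was 2.60 on the log2 scale (SE 0.63, adjusted p = 0.0254 in edgeR). Other neurons of library 10 reached the proprioceptor range of Cdh12, and its call was lost without library 1 (adjusted p = 0.0789 in edgeR), library 3 (0.097) or library 9 (0.0912).

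Calcium-binding and secreted proteins gave the last of the functional groups. Of 15 calcium-binding protein genes tested (median log2 fold change -0.08) 4 were higher and 5 lower, and 2 and 2 were called without each library in turn. Pcp4, a calmodulin regulator, stood at 417, 446, 162 and 352 CPM in proprioceptors and 144, 159.97, 60.3 and 197 CPM in other neurons (log2 fold change 1.32, SE 0.14, adjusted p = 0.000341 in edgeR), and S100a6, calcyclin, at 0, 1.9, 0.800 and 0.564 CPM against 28.8, 27.4, 33.1 and 19.8 CPM. The difference for S100a6 was -5.20 on the log2 scale (SE 0.47, adjusted p = 0.000159 in edgeR). Of 20 genes of secreted peptides and growth factors (median log2 fold change 0.08) 6 were higher and 5 lower. Chgb, chromogranin B, rose with its granule partner Scg2 and stood at 212, 232, 242 and 254 CPM against 77.4, 82.2, 79.2 and 54.96 CPM (log2 fold change 1.68, SE 0.15, adjusted p = 0.000141 in edgeR), and Fstl5, a follistatin-like protein, rose as well (log2 fold change 1.75, SE 0.27, adjusted p = 0.00294 in edgeR). Vgf, whose peptide precursor shares those granules, was lower, at 24.96, 3.79, 50.6 and 60.7 CPM against 66.8, 75.6, 210.3 and 203 CPM (log2 fold change -2.02, SE 0.27, adjusted p = 0.0013 in edgeR), and so was Igfbp2 (log2 fold change -3.17, SE 0.32, adjusted p = 0.000309 in edgeR).

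Hox genes, which carry rostrocaudal position along the body axis, differed within libraries. Of 16 tested (median log2 fold change -0.06) 5 were higher (31.3%), all of the HoxC cluster, and 4 lower (25%), of the HoxB and HoxD clusters, and 3 and 2 of these were called without each library in turn. Hoxc10 stood at 55.3, 37.9, 115 and 155 CPM in proprioceptors and 0, 0, 23.6 and 32.1 CPM in other neurons. The difference for Hoxc10 was 2.84 on the log2 scale (SE 0.43, adjusted p = 0.00255 in edgeR). Hoxc9 stood at 165, 208, 105 and 92.3 CPM against 18.2, 9.86, 50.8 and 24.4 CPM. The difference for Hoxc9 was 2.42 on the log2 scale (SE 0.42, adjusted p = 0.00545 in edgeR), a call lost when cells were thinned to 10000 UMIs (adjusted p = 0.0624 in edgeR). Hoxc6 stood at 61.96, 50.3, 46.2 and 44.5 CPM against 19.7, 10.96, 4.73 and 12.2 CPM. The difference for Hoxc6 was 2.15 on the log2 scale (SE 0.26, adjusted p = 0.000842 in edgeR). Hoxc8 stood at 378, 408, 148 and 128 CPM against 16.7, 53.7, 61.4 and 76.3 CPM (log2 fold change 2.18, SE 0.46, adjusted p = 0.0144 in edgeR), a call that was lost without library 3 (adjusted p = 0.0908 in edgeR). Hoxd8 stood at 3.57, 7.59, 3.4 and 7.61 CPM against 42.5, 18.6, 12.997 and 18.3 CPM. The difference for Hoxd8 was -2.0 on the log2 scale (SE 0.41, adjusted p = 0.0126 in edgeR). Hoxb6 stood at 6.24, 3.79, 6.8 and 7.05 CPM against 28.8, 21.9, 15.4 and 16.8 CPM. The difference for Hoxb6 was -1.68 on the log2 scale (SE 0.32, adjusted p = 0.00869 in edgeR). The HoxC genes lie side by side on chromosome 15, where Hoxc10 spans 102966796 to 102971893, Hoxc9 102976439 to 102985099, Hoxc8 102990607 to 102994111 and Hoxc6 102998257 to 103011881 (GRCm38, GENCODE M21). In the pooled connective tissue wells of the same libraries Hoxc8 stood at 179 CPM and Hoxc6 at 102 CPM, and the part of connective tissue RNA in these results was not tested.

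Sensory neurons depend on target-derived factors for survival at this age, and genes of intrinsic cell death were listed for that reason. Of 15 tested (median log2 fold change 0.13) 1 was called, higher (6.67%, against 7.04% of all tested genes). Bcl2, the survival gene and the one called, stood at 293, 273, 213 and 305 CPM in proprioceptors and 63.7, 60.3, 51.99 and 121 CPM in other neurons. The difference for Bcl2 was 1.92 on the log2 scale (SE 0.16, adjusted p = 0.000126 in edgeR). Bax, its proapoptotic partner, stood at 65.5, 74.9, 71.6 and 82.4 CPM against 78.9, 97.5, 70.9 and 85.5 CPM and was not called (log2 fold change -0.16, SE 0.13, adjusted p = 0.483 in edgeR). Of 10 immediate early and stress genes tested (median log2 fold change -0.02) 1 was called, higher (10%), Jun, at 619.6, 485, 343 and 339 CPM against 266, 152, 139 and 101 CPM. The difference for Jun was 1.48 on the log2 scale (SE 0.12, adjusted p = 0.000119 in edgeR). Jun stood at 2719 CPM in the connective tissue wells. Markers of other cell types were low in both classes, which for glia and connective tissue follows in part from the gate. The 13 glial genes summed to 36.4 to 82.0 CPM in proprioceptors and 35.1 to 273 CPM in other neurons, with 2 tested and none called. The connective tissue list had 2 tested and none called, the proliferation list 1 tested and none called, and the blood, endothelial and immune list and the skeletal muscle list none with enough counts to test. Sox10, the glial factor, stood at 2.67, 0, 3.2 and 0.564 CPM in proprioceptors and 6.07, 8.77, 2.36 and 1.53 CPM in other neurons. The part of glial RNA in single results was not tested.

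**Figure D4:**
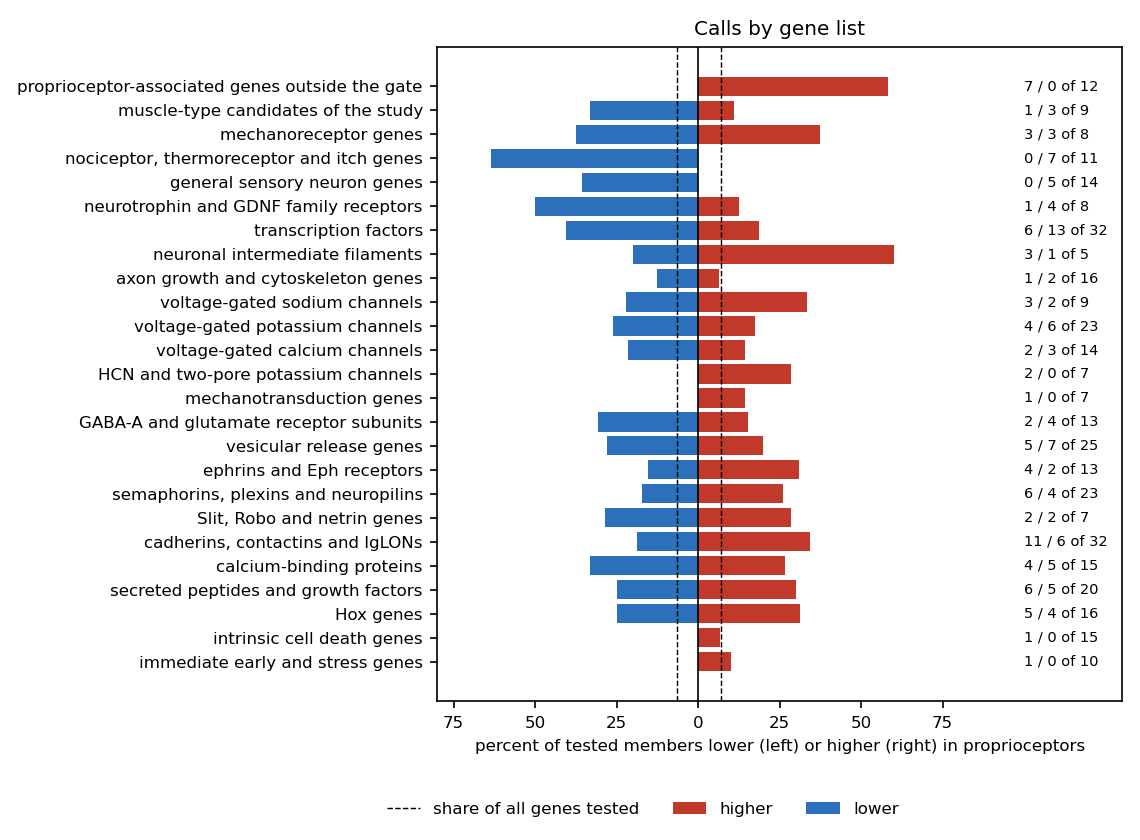
Each bar is the percent of tested members of a list that were lower (left, blue) or higher (right, red) in proprioceptors at an adjusted p under 0.05, with the counts higher and lower of the number tested at the right. The dashed lines mark the shares over all tested genes, 7.04% higher and 6.36% lower, and lists with under 5 tested genes are left out.

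The other neurons were also split by the most abundant of Ntrk2, Ntrk3 and Ret where it reached 100 CPM, a description chosen after the values were seen. This gave 5 Ntrk2-led, 4 Ntrk3-led and 10 Ret-led neurons and 13 with none of the 3 at 100 CPM. Levels of a set were pooled, so cells with more UMIs weigh more. The leading higher genes were chosen for their fold against these same neurons, so low levels in the sets largely follow from the choice. Kcnip2 was at 3.37, 6.54, 3.89 and 2.57 CPM in that order, against 203 CPM in the 259 proprioceptors. Kcns1 was at 5.62, 3.27, 0 and 1.29 CPM and Pcdh8 at 2.25, 6.54, 0.649 and 0 CPM. Plxna4 was high in each, at 784, 500.3, 454 and 567 CPM, as was Nrp1, at 620.3, 420.2, 295 and 352 CPM, and Prrxl1, at 110.1, 99.7, 139 and 215 CPM. The nociceptor genes Prdm12, at 1.12, 1.64, 258 and 454 CPM, and Scn10a, at 0, 1.64, 125 and 407 CPM, thus lay in the Ret-led neurons and those with none of the receptors. Runx1 was at 1.12, 0, 27.9 and 551 CPM, and S100b at 37.1, 518, 411 and 2.57 CPM, mainly in Ntrk3-led and Ret-led neurons. Gfra1, at 1.12, 4.91, 202 and 14.2 CPM, was carried by the Ret-led neurons. F2r was at 244, 37.6, 170.04 and 2.57 CPM, Brinp1 at 483, 257, 167 and 38.6 CPM and Nwd2 at 22.5, 0, 245 and 1274 CPM.

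The 4 Ntrk3-led neurons, which came from 3 libraries, were set beside the 259 proprioceptors. Ntrk3 stood at 2032 CPM pooled against 1785 CPM, a level that the choice of these cells fixed, and Runx3, a gate gene, at 136 CPM against 288 CPM. Outside the gate, Cdh12 stood at 347 CPM against 316 CPM, and Slit2 at 105 CPM against 159 CPM. Nefl stood at 7152 CPM against 7117 CPM. They had no UMI of Lox, Wls or Plxnd1, and Maf stood at 359.7 CPM against 11.4 CPM in proprioceptors. The pooled levels weight each cell by its UMIs, so they rest mostly on the deepest of these cells. By cell, Cdh12 ran from 66.9 to 486 CPM. With 4 cells these are values of those cells and carry no test.

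**Figure D5:**
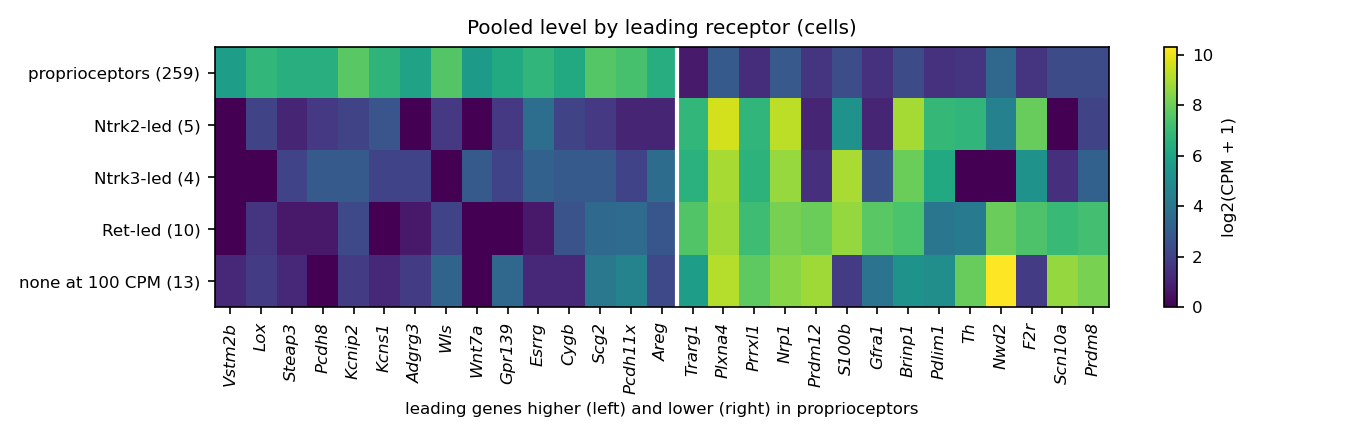
Each column is a leading gene and each row a set of cells, with the pooled level as log2(CPM + 1) in color and the number of cells in brackets, and the last row holds cells with Ntrk2, Ntrk3 and Ret each under 100 CPM. The genes were chosen for their fold against these other neurons, so low levels of the higher genes in the 4 sets largely follow from the choice. Many of the lower genes, among them Prdm12, Scn10a, S100b, Gfra1, Nwd2 and F2r, were at different levels in the sets.

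Across all 10 libraries the leading genes of proprioceptors varied to different degrees. Vstm2b ranged from 0 CPM in library 4 to 88.3 CPM, Steap3 from 31.4 to 162 CPM, Areg from 42.6 to 175 CPM and Gpr139 from 36.2 to 135 CPM. Kcnip2 ranged from 160 to 269 CPM (median 212), Kcns1 from 76.7 to 162 CPM (median 105) and Esrrg from 76.4 to 141 CPM (median 108). Among genes not in the leading set, Hoxc10 ranged from 1.98 CPM in library 2 to 155 CPM in library 10, and Casz1 from 1.87 to 281 CPM. Scg2 ranged from 46.6 CPM in library 6 to 273 CPM in library 1. In the pooled p1 proprioceptors Esrrg stood at 199 CPM, Kcns1 at 122 CPM, Kcnip2 at 102 CPM and Scg2 at 235 CPM, so these 4 genes were detected at both ages. Lox stood at 24.4 CPM and Pcdh8 at 28.9 CPM there.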

How the data were processed

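Single dorsal root ganglion neurons were measured by CEL-Seq2. The deposited tables hold UMI counts per gene and well, which the authors made with scruff 1.4.0 against mouse GRCm38, with no normalization. A table of 49671 genes by 960 wells was used for e15.5, 49412 genes with a symbol (GENCODE M21), and a second table only for pooled p1 levels. No per-sample column was left unused (0).

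Cells were gated as stated in the report, and UMIs were summed per class and library. Class sums of libraries with at least 3 cells of both classes were tested with edgeR's quasi-likelihood test (filterByExpr, TMM), with library as a block. The Benjamini-Hochberg adjustment ran over all genes that passed the filter, gate genes among them. Results are given for the 9913 genes outside the gate. Both classes came from the same library, and the deviations of same-library sums from the class means correlated at r = 0.374, 0.507, 0.295 and 0.418 in libraries 1, 3, 9 and 10. Sums held 654966 to 7095479 UMIs, which sets the counting floor of 3 UMIs. Intervals and floors cover counting error only. No doublet caller was run, and possible doublets were kept. Genes named are the 15 genes of largest log2 fold change in each direction among called protein-coding genes with at least 50 CPM in the higher class and the same sign in every library, called list members of large fold, and defining members whether called or not. Further list members, among them those that kept their call without each library, were picked after their values were seen. The members, lists and tests were chosen with earlier results of these data known.

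Results on some genes are not reported here. The fit was checked on simulated counts. Alternatives were DESeq2 (Wald test and size factors), no count filter, no block, each library left out, other cell minimums, thinning, the study's quantile filters, a stricter Etv1 or glial limit, and only other neurons without Pvalb and Runx3 UMIs. Software was Python 3.11.15, numpy 2.4.6, pandas 2.3.3, scipy 1.17.1, matplotlib 3.10.9, R 4.3.3, edgeR 4.0.16 and DESeq2 1.42.0. Promoter sequences came from RefSeq, GRCm38.p6.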

Additional observations from a re-analysis of the deposited data

Results flagged for a closer look

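In 7 of 117 series of 4 libraries, 1 library lay far from the other 3 by Dixon's test on the log2 ratio of proprioceptors to other sensory neurons (1 CPM added). Chance alone flags about 1 in 20.

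Th had a log2 ratio of -2.46 in library 9, against -5.18, -5.51 and -5.36 in libraries 1, 3 and 10. Etv5 had -5.38 in library 3, against -3.96, -3.70 and -3.71 in libraries 1, 9 and 10. Nrcam had -0.35 in library 1, against -1.64, -1.59 and -1.62 in libraries 3, 9 and 10.

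Library 10, with the fewest other neurons, stood apart for 4 genes. Wnt7a had a log2 ratio of 2.91 there, against 5.45, 5.57 and 5.75 in libraries 1, 3 and 9. Plxna1 had 0.87 there, against 1.97, 2.08 and 1.91. Pcp4 had 0.84, against 1.53, 1.47 and 1.41, and Pou4f1 had -0.16, against -1.002, -0.92 and -1.07. Ntrk3 was also highest in the other neurons of library 10, and the part of that in these values was not tested. The sum of the 4 other neurons of library 10 weights each by its UMIs and rests mostly on the deepest of them.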

How the results depend on the processing

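Of 114 tested genes named here, leaving out 7 named only because they lost a call without a library, 109 were called. Of these 104 stayed called without each library in turn and 93 in every setting in which they were tested. Some were picked for keeping their call, so these counts do not measure the stability of calls in general. Over all called genes, 376 of 698 higher and 344 of 630 lower were also called without library 3. The number of genes higher was 412 to 703 and lower 379 to 607 with 1 library left out, and the low ends were those without library 3. With no filter on low counts 1419 genes were higher and 918 lower of 25645 tested. Thinned to 10000 UMIs per cell, 136 were higher and 101 lower of 1694 tested. DESeq2 called 582 and 473.

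Without the replicate block 599 genes were higher and 556 lower, of which 565 and 513 were shared with the blocked fit, and Cdh12, Igf1, Nefl and Nefm lost their call. Igf1, Ina, Maf, Ngfr, Nrcam, Slit1 and Syt1 lost their call against the 7 other neurons without Pvalb and Runx3 UMIs, which were in libraries 1 and 3. Efnb2, Hoxc9, Ina and Scn2a lost it when thinned, Efnb2 also with at least 1 cell of a class, and Ret with Apoe plus Fabp7 under 50 CPM.

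The log2 fold change of Nefh, 0.01, became -0.37 without the block, -0.049 with the study's filters and -0.025 without possible doublets, and ran from -0.41 to 0.57 with 1 library left out. That of Piezo2, -0.06, became 0.020 with no filter, 0.16 with at least 1 cell of a class, an alternative chosen after seeing the data, 0.47 thinned and 0.87 against others without Pvalb and Runx3 UMIs, and ran from -0.26 to 0.082 with 1 library left out. That of Whrn, 1.12, became -0.48 against others without Pvalb and Runx3 UMIs, and Whrn was called higher with no filter on low counts. For all of these the cause was not tested. Depth and cell number limited the test to 9913 genes, where 25645 could be fitted with no filter.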

Other observations

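Hox levels in the proprioceptors of all 10 libraries are given as values, since the labels do not give the spinal level of a library. Hoxc8 stood at 378, 435, 408, 515, 369, 125, 201, 137, 148 and 128 CPM in libraries 1 to 10. Hoxa10, a gene of more caudal levels, stood at 8.47, 1.19, 0, 0, 4.1, 53.9, 63.8, 73.1, 87.97 and 76.5 CPM in the same order. Hoxc10 stood at 55.3, 1.98, 37.9, 3.75, 17.2, 137, 128, 143, 115 and 155 CPM. Libraries 1 to 5 had the higher levels of Hoxc8 and the lower levels of Hoxa10, and libraries 6 to 10 the reverse, and the 4 libraries of the comparison came from both sides.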
